A study of Mus musculus with 9 samples.

Results

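The genes described here encode the proteins of the cytosolic ribosome. They were chosen by symbol: every row of the array table whose annotation gives 1 symbol made of Rpl or Rps, digits and at most 1 final letter, together with Rplp0, Rplp1, Rplp2 and Rpsa, with pseudogene symbols and the Rps6k kinases left out. A gene with several rows was represented by the row with the highest mean over the beating and non-beating arrays. This gave 59 genes, 37 of the large and 22 of the small subunit, of 19938 genes with a row of 1 symbol, and these 59 genes held 215 of 33323 rows. Of 81 protein-coding mouse genes in RefSeq that fit the symbol rule, 58 were members, and the 59th, Rps4l, is listed by RefSeq as a transcribed pseudogene. The other 23, among them Rpl3, Rpl11, Rpl39 and Rps27, had no row of 1 symbol and were not analysed here.

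The stromal vascular fraction (SVF) is the mixture of non-fat cells left when adipose tissue is digested, and SVF from subcutaneous fat of C57BL6/J mice aged 10 weeks was grown in a minimal medium with no inducing factor. In the beating group (4 samples, day 28), all spontaneously contracting colonies were picked by hand, and each sample pooled those picked from 2 or 3 dishes that had been seeded with a single lot of cells. In the non-beating group (4 samples, day 28), the cells that remained in the dish were collected. A round cell pool of 6 cells (1 sample, day 14) was picked with an automated cell selector. RNA from each sample was amplified and read on an Affymetrix Mouse Gene 1.0 ST array, whose probes lie along the exons of each transcript, and all values below are log2 signals or differences between them. Nothing in the labels ties replicates to separate animals, so each p-value refers to the spread between these samples, which may be technical.

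The ribosome reads an mRNA on its small subunit and joins amino acids on its large subunit, and each subunit is a scaffold of ribosomal RNA bound by many small, mostly basic proteins. Because a ribosome needs most of its proteins in equal number, their genes are transcribed at high and broadly balanced levels in all growing cells, muscle included. Most of their mRNAs start with a terminal oligopyrimidine (TOP) tract, a cytosine followed by a run of pyrimidines, through which mTOR signalling sets their translation. A few members are paralogues with restricted use, such as Rpl3l, which replaces Rpl3 in heart and skeletal muscle.

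The promoters of 5 of the 6 members called below, and of 3 others with a TOP start, are shown here because they carry the start from which these mRNAs are read. RefSeq promoter windows on GRCm38.p6, running from 250 bases before to 50 bases after the annotated start, matched 47 of the 59 members. Rpl7, Rpl8, Rpl21, Rpl23a, Rpl29, Rpl30, Rpl36, Rplp1, Rps4l, Rps14, Rps20 and Rps29 had no entry. Each line gives 45 bases, 25 before the annotated start and 20 from it on, with the longest unbroken run of pyrimidines in capitals.
Rplp0: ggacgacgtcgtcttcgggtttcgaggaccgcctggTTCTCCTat
Rpl37a: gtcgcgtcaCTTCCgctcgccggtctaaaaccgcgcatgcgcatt
Rpl13: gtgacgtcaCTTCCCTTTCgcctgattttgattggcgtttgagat
Rpl10: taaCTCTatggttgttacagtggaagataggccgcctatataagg
Rpsa: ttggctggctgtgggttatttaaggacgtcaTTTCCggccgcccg
Rps6: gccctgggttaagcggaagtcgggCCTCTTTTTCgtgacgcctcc
Rps10: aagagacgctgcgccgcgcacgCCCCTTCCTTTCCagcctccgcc
Rpl14: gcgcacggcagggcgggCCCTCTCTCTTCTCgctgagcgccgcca
The windows lie at chr5:115559442-115559486 (plus strand) for Rplp0, chr1:72711235-72711279 (plus strand) for Rpl37a, chr8:123102325-123102369 (plus strand) for Rpl13, chrX:74270791-74270835 (plus strand) for Rpl10, chr9:120127741-120127785 (plus strand) for Rpsa, chr4:86857348-86857392 (minus strand) for Rps6, chr17:27635225-27635269 (minus strand) for Rps10 and chr9:120571492-120571536 (plus strand) for Rpl14. A C at the annotated start followed by 4 or more pyrimidines was found in 10 of the 47 members with a sequence, which is 21.3%, and in 3.01% of all 27025 genes with a promoter window. The 10 were Rpl14, Rpl28, Rpl32l, Rpl38, Rplp2, Rps6, Rps10, Rps15a, Rps18 and Rps21. In Rplp0, Rpl37a, Rpl13, Rpl10 and Rpsa the longest run lay before or after the annotated base, and the annotated start can differ from the base at which transcription begins. The median length of the longest run within the 45 bases was 7 in members and 5 over all genes. CGGAAG, the core bound by ETS-family factors, was present on either strand of the 300-base window in 32 of the 47 members (68.1%) and in 18.8% of all genes, and TATAAA in 6 members (12.8%) and in 15.7% of all genes. A gene with several annotated starts was counted as holding a motif if any of its windows did.

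The 8 arrays of day 28 had medians over all rows between 3.08 and 3.17, and the round pool had 3.54. As a check of the groups, all 8 striated muscle markers were called higher in beating samples, whose summed signal for these genes was 9972 to 11944 against 147 to 225 in non-beating samples and 12799 in the round pool. Some markers of other cells were called lower in beating samples: 3 of 5 fibroblast markers (summed signal 1615 to 2146 against 3544 to 5616), 2 of 6 adipocyte markers (153 to 256 against 305 to 461) and 1 of 9 macrophage markers (109 to 928 against 840 to 2797), while 0 of 4 endothelial and 0 of 5 cycling-cell markers were called. The part of this change in cell types in the differences below was not tested, and in such bulk samples fewer cells of a type and less RNA per cell cannot be told apart.

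Differences between beating and non-beating cells were small for most ribosomal protein genes. No member was called higher in beating samples and 6 were called lower, with 53 not called (limma fitted to all 33323 rows, two-sided, calls at a Benjamini-Hochberg adjusted p below 0.05). Over all rows 2.82% were called higher and 3.34% lower, and among the 8331 brightest rows, the top of 4 equal groups by level, which held 55 of the 59 members, 5.85% were called higher and 10.3% lower. The 6 members called lower were 10.2% of the 59, near that last share. At an unadjusted p under 0.05, 16 members passed and all 16 were lower, which is 27.1% of the 59, beside 12% of all rows and 30.4% of the 8331 brightest. In either direction 20.9% of all rows passed at that p. The median difference over the members was -0.08 on the log2 scale, with 44 members negative and 15 positive, beside a median of 0.01 over all rows and of -0.10 over the 8331 brightest. The median of the large subunit was -0.07 and that of the small subunit -0.08, with 4 of 37 and 2 of 22 called. All 4 beating values lay below all 4 non-beating values in 16 members (27.1%) and above them in 0. Over all rows 8.24% were separated downwards and 5.98% upwards, and over the 8331 brightest 23.4% and 9.91%. When each array was centred on its own median, the same 6 members were called and the median of all rows moved to -0.05 and that of the members to -0.14. That scaling moved the calls over all rows to 2.51% higher and 4.85% lower.

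**Figure D1:**
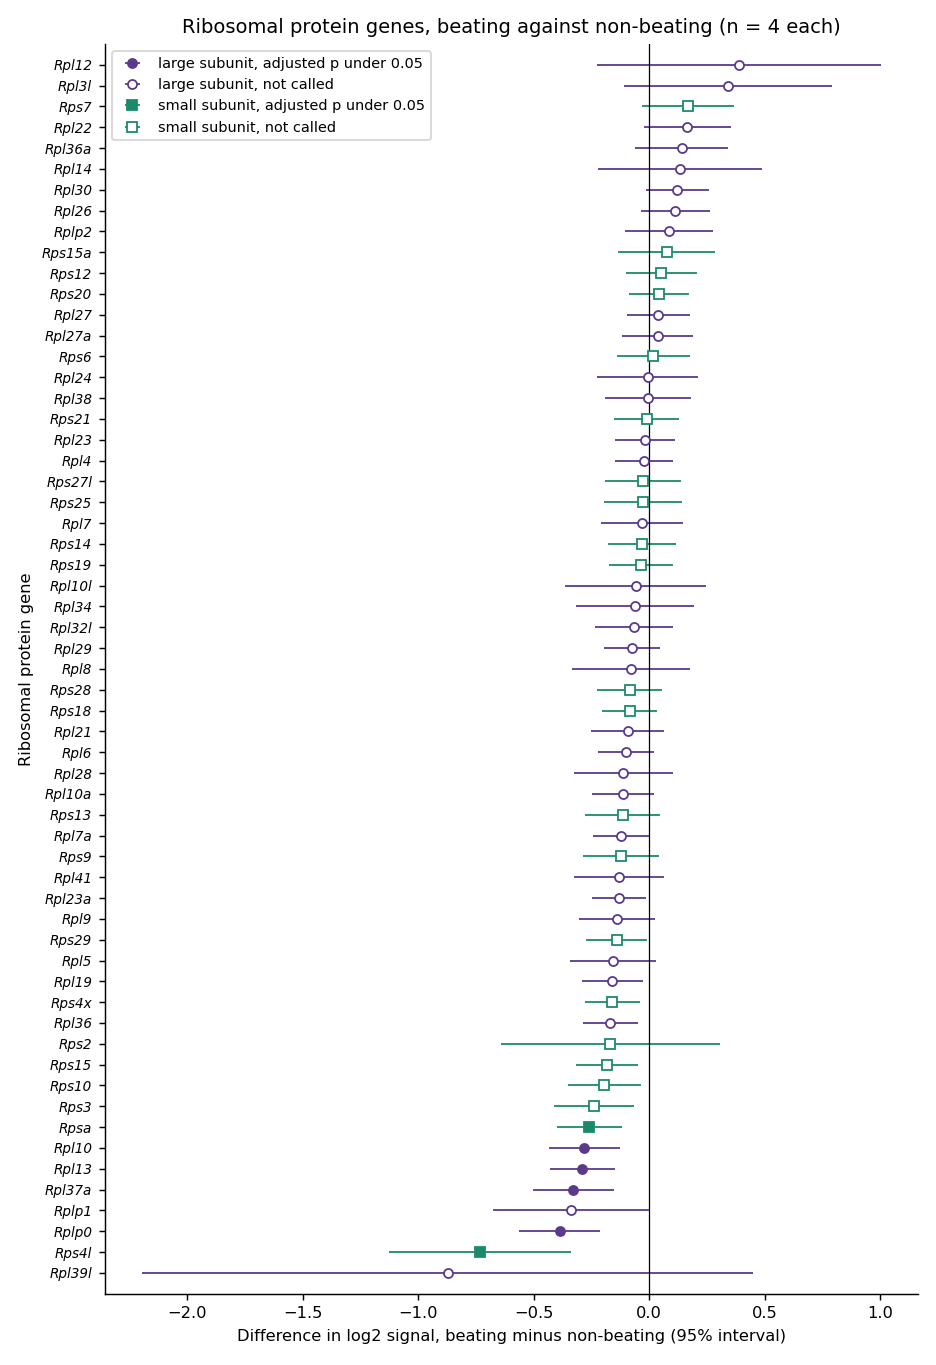
Difference in log2 signal, beating minus non-beating, for each of the 59 ribosomal protein genes, with its 95% interval from limma (n = 4 arrays a group). Circles are large subunit and squares small subunit genes, and filled symbols mark the 6 genes called, all of them to the left of 0. Most genes lie close to 0, and Rpl39l, Rpl12, Rps2 and Rpl3l have the widest intervals.

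For most members, the chosen row varied little between the samples of a group. Their pooled SD within groups had a median of 0.087, against 0.154 over all rows and 0.199 over the 8331 brightest, and ranged from 0.038 to 0.935. The 95% interval of the difference reached 0.16 to either side in the median and held 0 in 43 members. Of the 53 members not called, 37 had an interval wholly within 1.25-fold in either direction and 51 within 2-fold. The 2 whose interval reached past 2-fold were Rpl39l, at -2.20 to 0.45, and Rpl12, at -0.22 to 1.01. These intervals are for the chosen row and do not bound other rows of the gene. Rps15 and Rpl21 lay within 1.25-fold in the chosen row, yet each had other rows called lower, down to -0.67 and -0.45. The same held for Rps4x, Rpl36 and Rps13, each with 1 other row called lower. The lowest differences over their rows were -0.39, -0.31 and -0.24. Per array, the median log2 signal over the members was 10.78 to 10.83 in beating samples and 10.89 to 11.03 in non-beating samples, without overlap. The large subunit medians were also apart, at 10.49 to 10.68 against 10.80 to 10.90. The small subunit medians overlapped, at 11.20 to 11.42 in beating and 11.22 to 11.28 in non-beating samples. The median over the 8331 brightest rows did not overlap either, at 6.4747 to 6.6368 against 6.6396 to 6.6711.

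Among the called members, Rplp0, the protein at the base of the stalk that recruits translation factors to the large subunit, had log2 signals of 10.83, 11.05, 11.04 and 11.14 in beating samples and 11.47, 11.41, 11.36 and 11.36 in non-beating samples. The groups did not overlap, with means of 11.01 ± 0.13 and 11.40 ± 0.05 (SD, n = 4 each), a difference of -0.39 ± 0.08 (SE) and a signal 1.31-fold lower in beating cells (limma adjusted p = 0.0254). Rpl37a, a zinc-binding protein of the large subunit, read 10.67, 10.77, 10.58 and 10.47 in beating and 10.90, 10.95, 10.92 and 11.04 in non-beating samples. It was lower in every beating array than in any non-beating array, with a difference of -0.33 ± 0.08 (limma adjusted p = 0.0449). Rpl13, which lies on the surface of the large subunit, read 10.79, 10.83, 10.94 and 10.98 against 11.20, 11.14, 11.19 and 11.16. Its difference was -0.29 ± 0.06 (limma adjusted p = 0.0337), again without overlap.

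Rpl10, which joins the large subunit last and lies beside the site where peptide bonds form, read 10.47, 10.65, 10.57 and 10.69 in beating and 10.89, 10.87, 10.94 and 10.81 in non-beating samples, a difference of -0.28 ± 0.07 (limma adjusted p = 0.0483). Rpsa, a small subunit protein at the mRNA exit that is also known as the laminin receptor precursor, read 11.54, 11.62, 11.54 and 11.65 against 11.75, 11.92, 11.90 and 11.82. Its difference was -0.26 ± 0.06 (limma adjusted p = 0.0482). Rps4l, a paralogue of Rps4x, gave the largest called difference, at 5.25, 4.59, 5.40 and 5.14 in beating and 5.93, 5.96, 5.79 and 5.64 in non-beating samples. Its signal was 1.66-fold lower in beating cells (-0.73 ± 0.17, limma adjusted p = 0.045), and its row lists no RefSeq mRNA. None of these 3 genes had overlapping groups, and the 5 called members other than Rps4l were 1.2- to 1.31-fold lower.

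These calls lay close to the threshold, and fewer or none were left when 1 array was left out. Without any 1 of the 4 non-beating arrays, 0 members were called, and without beating replicate 1, 2, 3 or 4 the count was 1, 2, 1 or 3. Calls fell over the whole array too. Of all rows, 3.34% were called lower with every array and 1.31% to 2.07% without 1 non-beating array. Without beating replicate 1, 2, 3 or 4 that share was 2.53%, 1.89%, 2.33% or 3.07%. Over all alternatives tried, Rplp0 lost its call in 9 of 16 (adjusted p up to 0.0974), Rpl13 in 9 of 16 (up to 0.105), Rpl37a in 9 of 16 (up to 0.134), Rpsa in 10 of 16 (up to 0.132), Rpl10 in 11 of 16 (up to 0.144) and Rps4l in 11 of 17 (up to 0.129). None of the 6 changed sign in any of them. With the two-sample test of the study's methods and Benjamini-Hochberg adjustment, 3 members passed, Rpl13, Rpl36 and Rps4x, of which 1 was among the 6. That test called 1.13% of all rows lower.

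**Figure D2:**
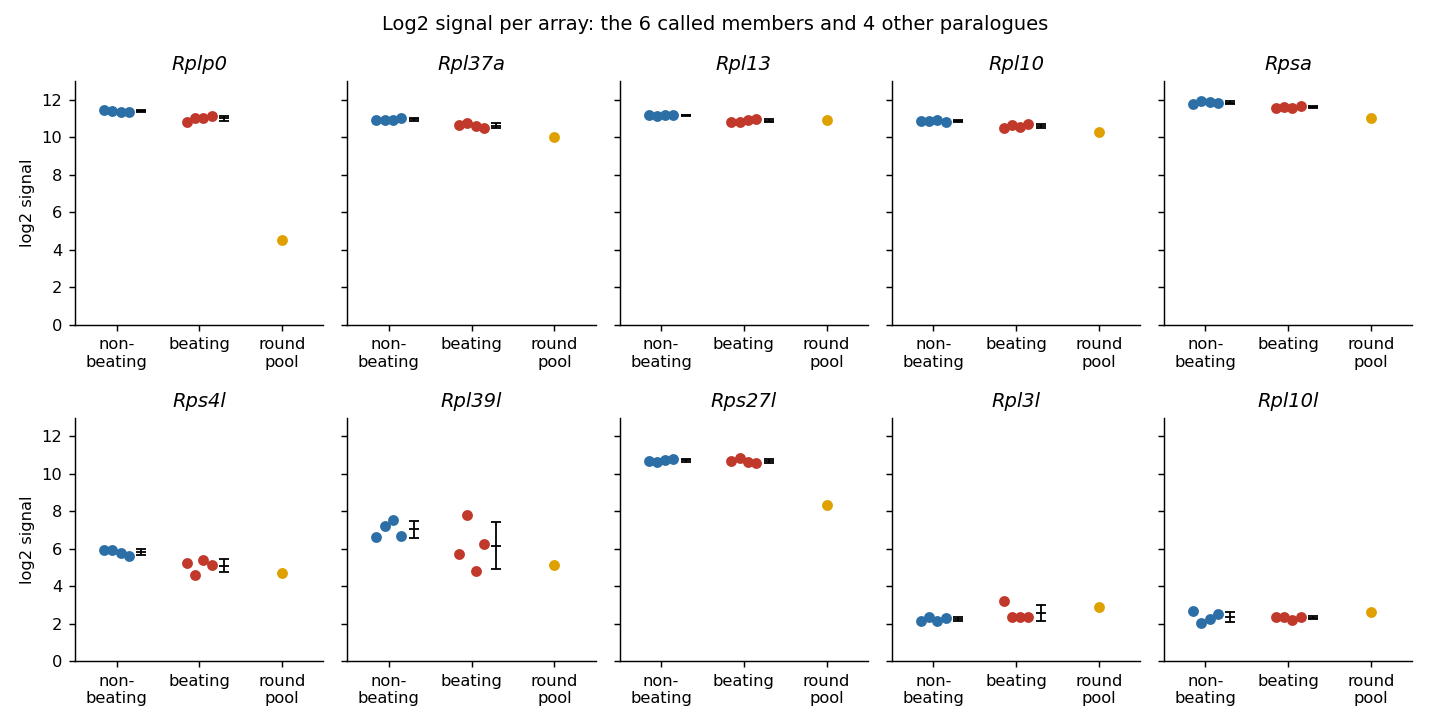
Log2 signal on each of the 9 arrays for the 6 called members and 4 other paralogues (points), with the mean and SD of the 4 arrays of a group in black. The called members differ by a fraction of a log2 unit between non-beating (blue) and beating (red) arrays, and Rplp0 is at 4.53 in the round pool (yellow, 1 array), far below both groups.

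By place in the ribosome, 1 of the 4 measured stalk genes, Rplp0, was called lower. Rplp1, which with Rplp2 forms the flexible arms of the stalk, read 9.99, 10.54, 10.48 and 10.54 in beating and 10.83, 10.90, 10.64 and 10.51 in non-beating samples, with overlap through 1 non-beating array (-0.34, limma adjusted p = 0.235). Rplp2 differed by 0.08 (adjusted p = 0.636) and Rpl12, at the foot of the stalk, by 0.39 (adjusted p = 0.469). The Rplp2 and Rpl12 rows list no RefSeq mRNA, and the Rpl12 row was dim, at 2.79 to 4.00 over the 8 arrays. Around the exit tunnel, through which the new peptide leaves, 0 of 4 measured genes (of 8 on the list) were called. Rpl19 had the largest difference there, -0.16 (adjusted p = 0.162), with 10.82, 10.82, 10.69 and 10.70 in beating and 10.91, 10.93, 10.87 and 10.96 in non-beating samples and no overlap. Rpl23a and Rpl4 differed by -0.13 and -0.02, and Rpl26 by 0.11. Rpl5, which carries the small 5S ribosomal RNA into the large subunit together with Rpl11, differed by -0.16 (adjusted p = 0.321).

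On the small subunit, 0 of 3 measured proteins at the mRNA entry and decoding side were called. Rps3, at the mRNA entry, was the lowest of them relative to non-beating cells, at 8.17, 8.42, 8.28 and 8.28 against 8.66, 8.50, 8.45 and 8.50 (-0.24, adjusted p = 0.11), and Rps15 differed by -0.18 (adjusted p = 0.118). Both had groups that did not overlap, whereas Rps2 differed by -0.17 with overlapping groups. On the mRNA exit side 1 of 3 was called, Rpsa, and Rps14 and Rps28 differed by -0.03 and -0.08. On a list of 9 genes known to be mutated in Diamond-Blackfan anaemia, an inherited failure of red cell production, 4 were measured and 0 were called, from Rps10 at -0.20 (adjusted p = 0.151) and Rpl5 at -0.16 to Rps19 at -0.04 and Rps7 at 0.17 (adjusted p = 0.318). Rps6, the target of S6 kinase, differed by 0.02 and Rpl38, known for its part in translating Hox mRNAs, by -0.01.

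The paralogues were described separately because their use is restricted. Rpl3l, the striated muscle form of Rpl3, read 3.23, 2.39, 2.39 and 2.39 in beating and 2.16, 2.39, 2.15 and 2.33 in non-beating samples. Only beating replicate 1 stood above the others, the difference of 0.34 ± 0.20 was not called (adjusted p = 0.381), and its row fell in the second dimmest of the 4 level groups, although the 8 muscle markers were higher in all 4 beating arrays. Rpl10l, known from testis, read 2.36, 2.37, 2.20 and 2.36 against 2.67, 2.05, 2.28 and 2.53, in the same range of dim signals and with no call (adjusted p = 0.851). Its difference of -0.06 turned positive when non-beating replicate 1 was left out. Rpl39l, also known from testis, was the most variable member, at 5.76, 7.82, 4.83 and 6.26 in beating and 6.65, 7.24, 7.54 and 6.71 in non-beating samples. Beating replicate 2 had the highest value of all 8 arrays and beating replicate 3 the lowest, and the difference of -0.87 ± 0.57 was not called (adjusted p = 0.452). Rps27l, a paralogue of Rps27 that p53 induces, differed by -0.03 ± 0.07 and its sign depended on the scaling and on single arrays. Of the parent genes, Rpl10 was called lower and Rps4x differed by -0.16 (adjusted p = 0.119, no overlap).

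Members with several rows allowed the same gene to be read more than once. There were 39 such members, and 20 had 1 row. Ribosomal protein genes have many processed pseudogenes that nearly match the mRNA, so rows of 1 gene can read the same transcripts and are not independent, and 19 of the 215 rows, of 5 genes (Rpl23a, Rpl27, Rpl41, Rps12 and Rps28), held the same values as another row of the table. Of the 215 rows, 173 were negative, 26 were called lower and 0 higher. Of these rows 199 had a mean log2 signal of 8 or more. Among the 8331 brightest rows of the array 5217 were negative, 856 (10.3%) were called lower and 487 (5.85%) higher. All 9 rows of Rpl13 were called lower, with differences from -0.58 to -0.29, as were all 5 of Rpsa, from -0.77 to -0.26, and both rows of Rps4l. In Rpl13 and Rpsa the brightest row, which the rule selected, gave the smallest difference. Rpl10 was negative in all 6 rows and called in 1, and Rplp0 was called in 1 of 2, the other row being at -0.24 (adjusted p = 0.137). Rps15, which was not called in its brightest row, was called lower in its other 2 rows, at -0.36 and -0.67 (adjusted p = 0.0343 and 0.00548). Rpl21 was called lower in 2 of its 9 rows, Rpl36 in 1 of 9, Rps4x in 1 of 5 and Rps13 in 1 of 3, never in the brightest row.

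Other genes of translation were compared as lists. Over 77 mitochondrial ribosomal proteins, which are encoded in the nucleus and build the separate ribosome of the mitochondrion, 0 were called by limma or by the methods' adjusted test, 16 (20.8%) had an unadjusted p under 0.05, where 20.9% of all rows did, and the median difference was 0.03. Of 33 ribosome biogenesis genes 0 were called higher and 2 lower, with a median of 0.004. These were Fbl, the fibrillarin methyltransferase of ribosomal RNA (-0.37, adjusted p = 0.0158), and Riok1, a kinase of small subunit maturation (-0.73, adjusted p = 0.0381). Of 23 measured initiation factors (of 28), Eif3k, a subunit of the eIF3 complex, was called lower (-0.38, adjusted p = 0.0241). Of 15 other genes with TOP mRNAs 0 were called and 3 had an unadjusted p under 0.05, again beside 20.9% of all rows. Of 12 genes of the mTOR pathway, Eif4ebp2, which holds the cap-binding factor Eif4e inactive, was called lower (-0.74, adjusted p = 0.0402). Beside these counts, 3.34% of all rows and 10.3% of the 8331 brightest were called lower. Without 1 array at a time, the counts were 0 to 3 for biogenesis, 0 to 2 for initiation factors, 0 to 2 for mitochondrial ribosomal proteins and 0 to 1 for the mTOR genes, where non-beating replicate 3 was the array whose absence left 1 call.

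The only gene of these lists called higher in beating samples was an elongation factor, beside 2.82% of all rows called higher. Eef1a2, the form of the tRNA-delivering factor used in muscle and neurons, read 5.36, 4.59, 4.58 and 4.56 in beating and 3.71, 3.67, 3.50 and 3.70 in non-beating samples. Its signal was 2.18-fold higher in beating cells (1.12 ± 0.18, limma adjusted p = 0.0114), without overlap. It was the call of the 6 measured elongation factors, a count that stayed at 1 without any 1 array and was 0 with the methods' adjusted test, where Eef1a2 had an adjusted p of 0.052. Eef1a1, the widely used form, differed by 0.03 (adjusted p = 0.88). Of the ribosome genes outside the symbol rule 2 of 6 were measured. Fau, a precursor whose processing gives a small subunit protein, differed by -0.35 (adjusted p = 0.059) and Rpl7l1, a relative of Rpl7, by -0.40 (adjusted p = 0.0852).

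**Figure D3:**
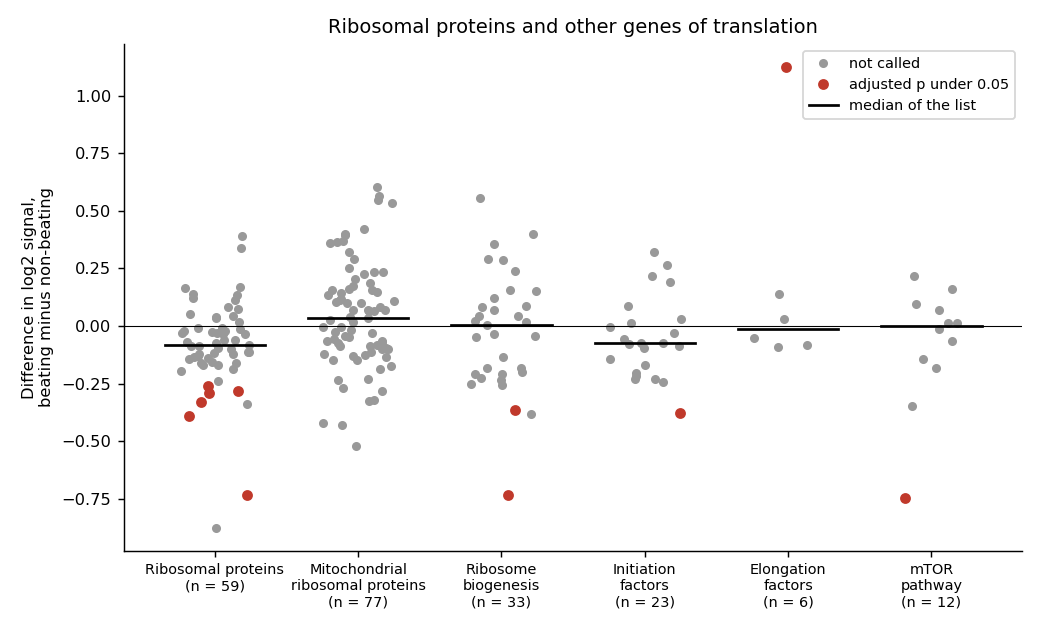
Difference in log2 signal, beating minus non-beating, for the 59 ribosomal protein genes and 5 other lists (points, spread sideways for display), with calls at an adjusted p under 0.05 in red and the median of each list as a black line. The medians of all 6 lists lie near 0, the called ribosomal protein genes lie below 0, and Eef1a2 stands alone at 1.12.

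The round cell pool was a single array of 6 cells, so its values were compared without a test. It differed from the other 8 arrays in day of culture and in how, and how many, cells were collected. The part of each in the differences below was not tested. The paper itself raises the concern that noise entered this pooled sample. The median over the members on that array was 9.48, and the median difference from the non-beating mean was -0.69, with 48 members negative and 11 positive. Over all rows the median difference was 0.22, and it was 0.32, 0.58, 0.19 and -1.29 in the 4 level groups from dimmest to brightest. The round pool lay below all 8 other arrays in 40 members and above them in 5, against 24.4% and 46.4% of all rows and 72.7% and 11% of the 8331 brightest. The differences had an SD of 1.498 over the members, 1.41 over all rows and 1.86 over the 8331 brightest, and that of beating minus non-beating was 0.20 over the members. In 12 members (20.3%) the round pool was lower by more than 2 on the log2 scale, beside 33.7% of the 8331 brightest rows, and in 21 (35.6%) it was within 0.5 of the non-beating mean, beside 18.7%. Against the beating mean the median difference was -0.56. Centring all 9 arrays on their medians gave -1.15 for the members and -1.74 for the 8331 brightest rows, and quantile normalisation gave -0.41 and -0.60.

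Rplp0 was furthest below the other samples. Its signal was 4.53 in the round pool, a difference of -6.87 from the non-beating mean, beside -0.39 for beating minus non-beating. Rpl14 was at 3.96 (-4.95), Rpl5 at 5.48 (-4.64), Rpl28 at 7.21 (-3.64) and Rps10 at 7.10 (-3.58), and all 5 lay below every other array. Whether these low signals reflect the mRNA content of round cells or the amplification of RNA from so few cells was not tested. Rplp1, the partner of Rplp0 on the stalk, was also low (-3.37), whereas Rplp2 differed by -0.25. The Rplp2 row lists no RefSeq mRNA and averaged 6.66 in non-beating samples, against 10.72 for Rplp1 and 11.40 for Rplp0. At the other end Rpl29, at 7.92, was 1.53 above the non-beating mean, Rpl3l 0.64, Rpl27a 0.56, Rpl30 0.48 and Rpl10l 0.24. Rpl29, Rpl27a and Rpl30 were above all 8 arrays, but Rpl3l and Rpl10l were not. In non-beating samples Rpl29 averaged 6.39, Rpl30 5.20, Rpl10l 2.38 and Rpl3l 2.26, against 11.74 for Rpl27a. Rpl3l and Rpl10l were in the second dimmest level group, where the median round pool difference over all rows was 0.58. With the 9 arrays centred or quantile-normalised, the difference was 1.08 or 2.46 for Rpl29, 0.18 or 0.17 for Rpl3l, 0.11 or 0.48 for Rpl27a, 0.02 or 1.498 for Rpl30 and -0.21 or -0.16 for Rpl10l, whose sign turned. The sign for Rpl27a turned when the mean of all its rows was used. The median was -0.57 in the large and -1.11 in the small subunit. Of the 10 members with a TOP start in the promoter window, the differences ran from -4.95 for Rpl14 to 0.07 for Rps6, and for beating minus non-beating from -0.20 to 0.13 with 0 called.

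**Figure D4:**
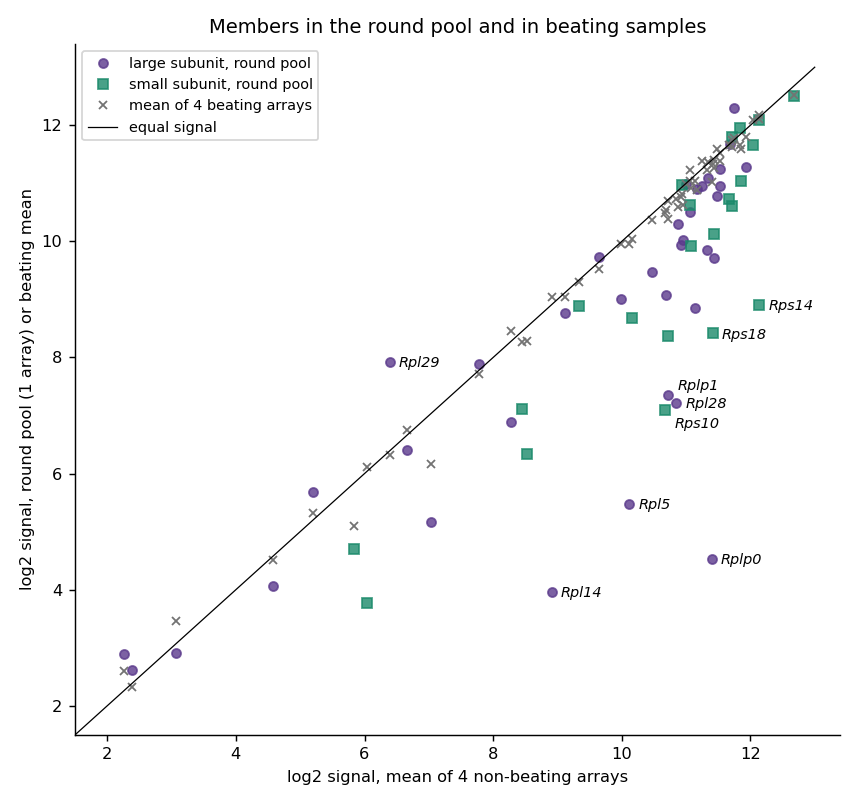
Log2 signal of each member in the round pool (circles for the large and squares for the small subunit, 1 array) and in the mean of 4 beating arrays (grey crosses), against the mean of 4 non-beating arrays, with a line of equal signal. The beating means follow the line, while the round pool lies on it for some genes and several log2 units below it for others, with Rplp0 at 4.53.

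Rows of the same gene did not always give the same value in the round pool. In the 37 members with 2 or more rows at a mean log2 signal of 8 or more, the range of the round pool difference between rows had a median of 0.83, was under 1 in 23 members and was over 2 in 7. In Rps15 the rows ran from -4.44 to 0.11, in Rps21 from -5.32 to -0.94 and in Rpl27a from -1.91 to 0.56. The brightest row of Rps15 was above all 8 arrays and its other 2 rows were below them. Of the 9 rows of Rpl27a, 7 were above all 8 arrays, by 0.22 to 0.56 over the non-beating mean, and 2 were below them. In Rplp0 the rows were at -6.87 and -3.91, in Rps10 from -6.19 to -3.58, in Rpl28 from -5.51 to -3.47 and in Rpl5 from -4.64 to -2.60, so that every row at that level was low.

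**Figure D5:**
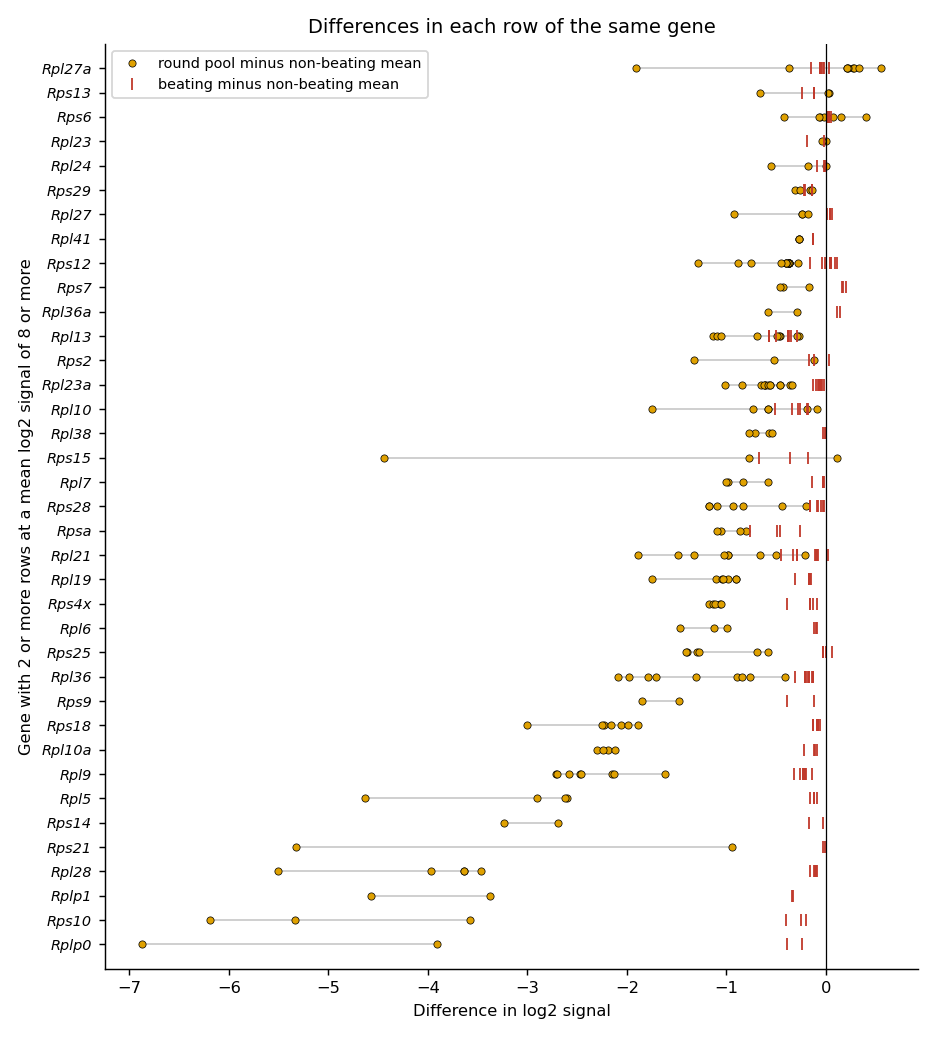
Differences in log2 signal from the non-beating mean in every row, at a mean log2 signal of 8 or more, of the 37 members with 2 or more such rows: the round pool (yellow points, joined by a grey line per gene) and the beating mean (red ticks). The red ticks lie closer to 0 than most yellow points, whereas yellow points of 1 gene spread over more than 2 log2 units in 7 genes.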

How the data were processed

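Affymetrix Mouse Gene 1.0 ST arrays were used for 4 beating samples, 4 non-beating samples and 1 round cell pool. The deposited table holds log2 signals that the authors had normalised before they deposited it. Their methods name BRB-ArrayTools with log2 scaling, normalisation and centring, but the method behind this table is not given in the sources used here. Its values were used as deposited. Fold values are ratios of signals that include background. Picked colonies were extracted with a small-sample column kit and a second kit is named for unselected cells, so kit and group cannot be told apart if the second was used for non-beating cells.

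Gene symbols came from GEO's platform annotation of the array (21789 rows with 1 symbol, 1621 with several and 9913 with none), and accessions and promoter windows from RefSeq. The 2 groups of day 28 were fitted with limma 3.58.1 (lmFit and eBayes) in R 4.3.3, and adjusted p-values run over all rows. The fit was tested on simulated data. The number of arrays limits the precision. Non-beating cells were collected from dishes that gave beating colonies, but the labels do not say which samples shared dishes. The main fit left this sharing out, and equal replicate numbers were not treated as pairs. The round pool stayed out of the fit.

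The genes named are the called members (up to 12 a direction), the paralogues and their parents, the called or most extreme gene of each group by place in the ribosome, the 5 highest and 5 lowest members in the round pool, and called genes of the other lists. Further members were added after their values were seen. Members, lists and tests were chosen with earlier results of these data known. Alternatives covered scaling, quantile normalisation, dim rows, the variance model, array weights, the methods' two-sample test, a replicate block, the mean of all rows of a gene and the absence of each array. Adding rows of several symbols and leaving out rows without a RefSeq mRNA were chosen after seeing the data. Figures were drawn with matplotlib 3.10.9.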

Additional observations from a re-analysis of the deposited data

Results flagged for a closer look

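Among the named members, 46 groups of 4 arrays were examined for a value apart from the other 3, and 4 were found, with chance giving about 1 in 20. The gap to the nearest value was 0.893 of the whole range for Rpl10l in beating samples (replicate 3 low, all values dim), 1 for Rpl3l in beating samples (replicate 1 high, the other 3 equal), 0.927 for Rps10 in beating samples (replicate 2 high) and 0.876 for Rpl28 in non-beating samples (replicate 2 high).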

How the results depend on the processing

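No alternative called a member higher. The count of members called lower, 6 as reported, was 3 with quantile normalisation, 3 with the methods' adjusted test and 0 with the methods' test at an unadjusted p under 0.0001, whose 1.5-fold filter kept 5 members. It was 0 with a replicate block and 0 to 3 without 1 array at a time. The share of all rows called lower fell as well, from 3.34% to 1.94% with the block and to 1.31% to 3.07% without 1 array. The block also took biogenesis, initiation and mTOR calls to 0, but the labels do not tie equal numbers together, the deviations of same-numbered samples correlated at -0.012 to 0.028, and no sample correlated best with its own number. With arrays centred, the members' median was -0.138, with 2 initiation factors, 1 other TOP gene and 1 mitochondrial ribosomal protein called. The methods' adjusted test called 1 biogenesis, 0 elongation and 0 mTOR genes. Over the 5 filtered members the median was -0.168, the large subunit's 0.340 and the small subunit's -0.451, since few genes were left. Without 1 array at a time the counts were 0 to 3 for biogenesis, 0 to 2 for initiation, 0 to 1 for mTOR and 0 to 2 for mitochondrial ribosomal proteins. The round pool's median was -1.15 centred, -0.41 quantile-normalised and -0.81 without dim rows. Signs turned for Rps27l (0.025 with quantile normalisation and -0.0738 to 0.00712 without 1 array), Rpl10l (-0.171 to 0.0359 without 1 array, and -0.21 centred and -0.16 quantile-normalised in the round pool) and Rpl27a (-0.0179 in the round pool with the mean of its rows). The cause was not tested. With rows of several symbols, 9 of 74 genes were called lower, and 5 members without rows that list no RefSeq mRNA. Of 319 alternatives for named genes, 232 kept their side, 59 lost the call, 1 gained it, 20 moved and 7 turned.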
